A study of Mus musculus with 24 samples.

Results

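The genes of the constitutive proteasome were followed in the mouse hypothalamus, using every gene symbol of the expression table that begins with Psma to Psmg and a number. The inducible subunits Psmb8, Psmb9 and Psmb10, the activator subunits Psme1 and Psme2, and symbols placed on Chr 17 were left out, which removed 1 further subunit, Psmb1. This rule used names and positions only and gave 41 genes of 13998 measured. Of these, 40 encode a subunit, an assembly chaperone or a regulator of the proteasome. The other, Psmc3ip, encodes a cofactor of meiotic recombination and is carried along because its symbol fits the rule.

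Expression was measured by SAGE-Seq, which counts 1 short tag per transcript, in the hypothalamus of 24 adult male F2 mice with 1 library per mouse. The 12 cast/cast mice were homozygous for alleles of the wild-derived CAST/EiJ strain across the Chr 17 subcongenic segment, and the 12 b6/b6 mice were homozygous for C57BL/6J alleles there. Outside this segment both groups were b6/b6. The congenic parents traced back to a single male. The 41 genes, none of them on Chr 17, thus had the same alleles in both groups. All mice had chosen between a carbohydrate/protein (C/P) and a fat/protein (F/P) diet for 10 d, had then returned to chow, and were killed about 48 h after the 2 diets were offered again. The authors chose the cast/cast mice from those that ate the most carbohydrate and the b6/b6 mice from those that ate the least, so that genotype and C/P intake cannot be told apart between the groups.

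The proteasome degrades proteins that carry a chain of ubiquitin. Its core, the 20S particle, is a barrel of stacked rings in which alpha subunits form the gates and beta subunits the chamber, and Psmb5, Psmb6 and Psmb7 encode the beta subunits with proteolytic activity. The 19S particle caps the barrel, binds ubiquitin and unfolds substrates with a ring of ATPases, and dedicated chaperones guide the assembly of both particles. In cells under interferon signalling the inducible beta subunits can replace the constitutive ones, and in neurons proteasomal degradation takes part in synaptic remodelling.

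The sequence that stands for each gene in such a library is its tag, the last CATG of the transcript and the bases that follow. Predicted tags of genes that the results below turn on are shown 5′ to 3′ from GENCODE M21 transcripts, with the anchoring CATG in capitals. They were read from the annotation, and which tags the authors' software assigned to a gene was not tested.
Psmb5: CATGgctataataaataatagtacctc
Psmb6: CATGgaacgcgacggctccagtggagg
Psmb4: CATGtccgtgctgtttcctttcctgga
Psmb2: CATGgctatggtgcctttctgactctc
Psma5: CATGgaaaatatccagtatatgtgtgt
Psmc5: CATGtccatcaagaagctatggaagtg
Psmc2: CATGacatacaattgagccccagggct
Psmd3: CATGgattagggtgtggactagggcct
Psmf1: CATGgagttggggttgacttctgggct

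On GRCm38 the Psmb5 tag lies at chr14:54614124-54614150 on the minus strand, in the 3′ UTR and 32 bases from the transcript end. The Psmb6 tag lies in a coding exon at chr11:70527450-70527476 on the plus strand. Over the 41 genes, 38 had a whole tag of 27 bases, with 19 in a 3′ UTR, 14 in coding exons and 5 across the end of the coding sequence. Psmc1, Psmd1 and Psmd12 had fewer bases than a tag after the last CATG. The tags of 5 genes also occurred in a transcript of another gene, namely Psma2, Psma5, Psmb3, Psmd13 and Psmd14, and their levels are uncertain for that reason.

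Libraries held 7754202 to 13082873 tag hits. The first 2 principal components of other genes, taken after subtraction of the genotype means, set mice apart. On the first, 6 mice stood at one end (cast/cast replicates 4, 5, 6 and 8, b6/b6 replicates 1 and 4), and on the second 2 mice did (b6/b6 replicates 6 and 12). At the other end of the first component lay b6/b6 replicates 6 and 12, at -0.26 and -0.28. They were kept when the 6 mice were left out. The b6/b6 replicates 6 and 12 had sums of 4 endothelial markers between 1003 and 1130 normalized counts, against 189 to 507 in the other mice. Their sums of 3 blood markers, of 7 listed, were 1704 to 4999, against 105 to 1044. Sums of 6 microglial markers in these mice were 1574 to 1637, against 1953 to 5215, and sums of 2 pituitary markers, of 5 listed, 159 to 470, against 0 to 265. The cast/cast replicates 4, 5 and 6 had summed levels of 13 hypothalamic markers, of 15 listed, between 6098 and 9307, below the 15458 to 35049 of the 9 other cast/cast mice, and sums of 6 microglial markers between 2333 and 5215, against 1953 to 3463. Their neuronal marker sums were not low, at 48181 to 60498 against 38683 to 53412. Astrocyte sums were 19677 to 22923 against 20847 to 27998, and oligodendrocyte sums 12958 to 24386 against 14620 to 35360. The part of these marker differences in the results below was not tested, and results are given with and without the mice that stood apart. In a whole hypothalamus, fewer cells of a type and less RNA per cell cannot be told apart.

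The constitutive proteasome was well represented in the hypothalamus. The 41 genes together took 0.463% to 0.979% of the tag hits of a library, and 32 of them lay above the median mean level of all genes, which was 150.6 normalized counts. Their summed level ranged from 53966 to 77844 normalized counts in b6/b6 mice and from 54312 to 104098 in cast/cast animals. The lowest sum was that of b6/b6 replicate 12 and the highest that of cast/cast replicate 1. Levels are tag counts divided by the size factor of the library. They need no correction for transcript length, as each transcript gives 1 tag, although they still depend on how well a tag can be aligned.

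**Figure D1:**
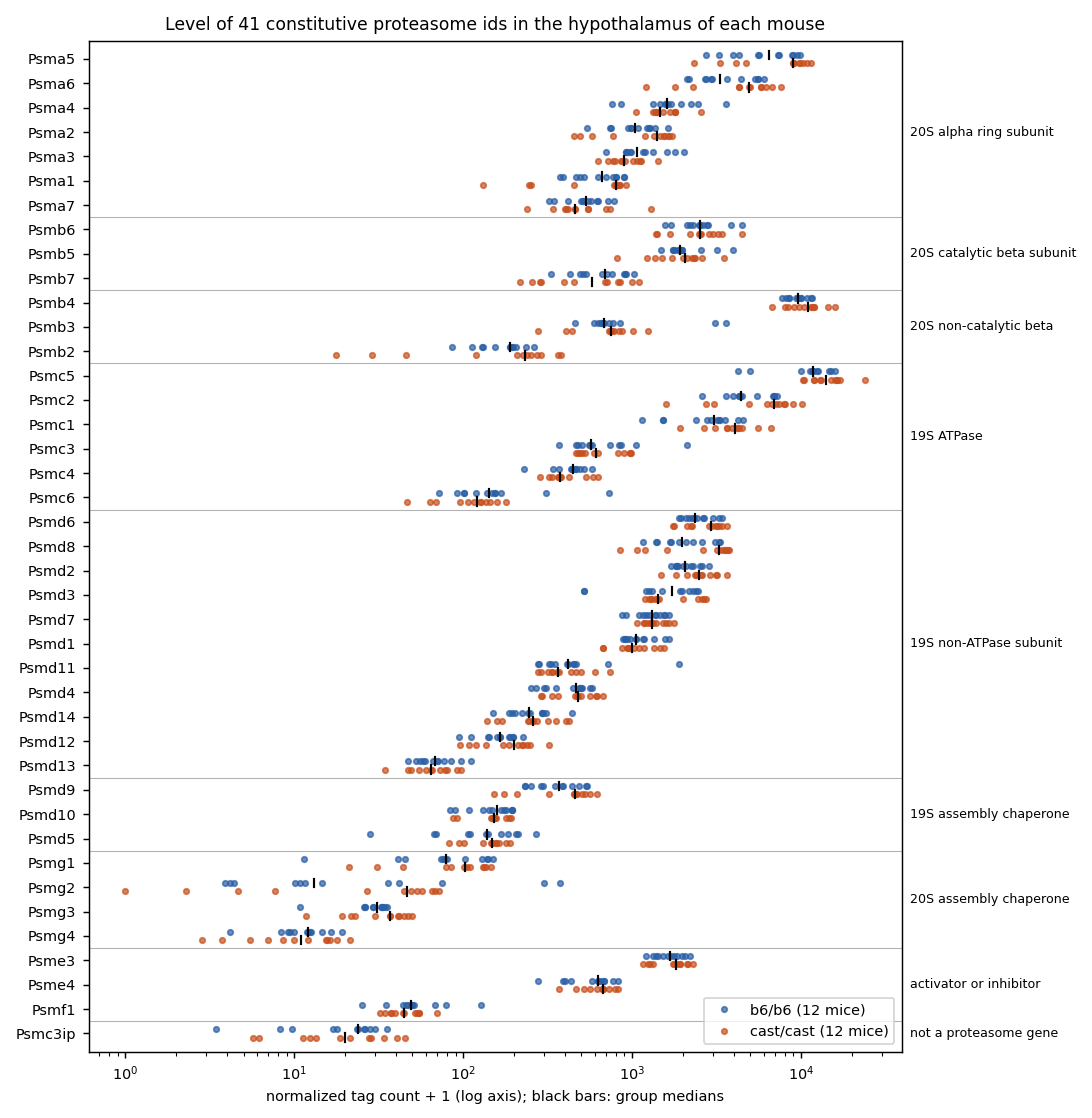
Normalized tag count plus 1 (log axis) of each of the 41 genes in every mouse, grouped by role and ordered by mean level, with b6/b6 mice in blue, cast/cast mice in orange and black bars at the group medians. The genotypes overlap for all 41 genes, and mean levels run from 10.5 for Psmg4 to 12949 for Psmc5.

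Although the subunits of the 20S core occur in equal numbers in the particle, their tag counts were far from equal. Among the 7 alpha ring genes, Psma5 had the highest mean level, 7114 normalized counts, and Psma7 the lowest, 542. The 3 catalytic genes lay between these bounds. Psmb6, which encodes the caspase-like subunit, ranged from 1559 through a median of 2505 to 4494 in b6/b6 mice and from 1377 through 2528 to 4468 in cast/cast mice. Psmb5, the chymotrypsin-like subunit, ranged from 1483 through 1927 to 3967 and from 814 through 2053 to 3483. Psmb7, the trypsin-like subunit, was the lowest of the 3, at 331, 688 and 1019 in b6/b6 and 217, 574 and 1102 in cast/cast mice. Psmb7 stayed below Psmb5 and Psmb6 in its group medians, while the ranges of Psmb5 and Psmb6 overlapped in both genotypes.

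The non-catalytic beta genes spanned the range of the core. Psmb4 had a mean of 10197 normalized counts and Psmb2 one of 187, a ratio of 54.4. In the 19S base, Psmc5 had the highest level of all 41 genes, 12949 on average, placing it at rank 90 of the 13998 genes, and Psmc6, another ATPase of the same ring, the lowest of the 6 at 151. The 11 non-ATPase genes extended from Psmd6 at 2608 to Psmd13 at 67.4. The median Psmd6 level was 2368 in b6/b6 mice and 2917 in cast/cast mice.

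The assembly chaperones lay in the lower part of the range, together with subunits such as Psmb2 and Psmd13. The 3 chaperones of the 19S base had means from 140 for Psmd5 to 388 for Psmd9. The 4 chaperones of the 20S core lay between 10.5 for Psmg4 and 90.01 for Psmg1, and the fewest tag hits of Psmg4 in a mouse were 2, under the 3 hits taken as detectable. Psmg2 was at 0 in 1 cast/cast mouse. Of the regulators, Psme3, a nuclear activator subunit, had a mean of 1699, Psme4, the activator PA200, one of 604, and Psmf1, which encodes the inhibitor PI31, one of 49.9.

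To ask whether the Chr 17 genotype went with proteasome expression, cast/cast and b6/b6 mice were compared gene by gene with limma. None of the 41 genes reached the study's rule of P at or below 0.01 with a 1.5-fold ratio of means, which 1.49% of all genes met, and none had an adjusted P at or below 0.05 in limma, edgeR or DESeq2, against 0.572% of all genes in limma. At an unadjusted P of at most 0.05 there were 2, Psmc1 and Psmc5, or 4.88%, a share below the 8.13% of all genes. edgeR and DESeq2 each gave 3, beside 11.6% and 12.1% of all genes. The median difference over the 41 genes, cast/cast minus b6/b6, was 0.04 on the log2 scale, beside -0.02 over all genes, and 23 were higher and 18 lower. Scaled to equal totals, the median became -0.05 and 17 were higher, while the median of all genes moved to -0.11.

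These counts depended on the mice that stood apart, and so did those of all genes. Without the 6 mice on the first component 11 of the 41 genes had an unadjusted P at or below 0.05, beside 16.8% of all genes, and Psmb2 met the study's rule, beside 3.74% of all genes. With both components as covariates 5 passed the adjusted threshold, namely Psma5, Psmc5, Psmc6, Psmd3 and Psmd8, as did 9.83% of all genes. Because the genotype means had been subtracted before the components were taken, these covariates could not change a genotype difference. Only its error changed, and the median difference over the 41 genes stayed at 0.04.

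The ATPase genes held the extremes in both directions. Psmc1 ranged from 1146 through a median of 3043 to 4517 normalized counts in b6/b6 mice and from 1918 through 4054 to 6609 in cast/cast mice. The genotypes overlapped widely, with the lowest b6/b6 values in replicates 6, 9 and 12. The difference was 0.53 ± 0.22 (SE) on the log2 scale, with a 95% confidence interval from 0.09 to 0.97 and an adjusted P of 0.564.

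Psmc5 ranged from 4204 through 11720 to 15912 in b6/b6 and from 10246 through 14093 to 23817 in cast/cast mice. Its 2 lowest values, 4204 and 4962, belonged to b6/b6 replicates 12 and 6. The difference of 0.42 ± 0.20 (95% confidence interval 0.01 to 0.82, adjusted P = 0.607) was 0.18 without these 2 mice, and that of Psmc1 was 0.37. Psma3, an alpha ring gene, ranged from 702 through 1069.5 to 2022 in b6/b6 and from 624 through 892 to 1424 in cast/cast mice. It came next, at -0.33 ± 0.16 (adjusted P = 0.612), and its highest values were again those of b6/b6 replicates 12 and 6. Psmc6 had the lowest difference, -0.51 ± 0.29, with a b6/b6 maximum of 725 in replicate 12 and a cast/cast maximum of 179.

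**Figure D2:**
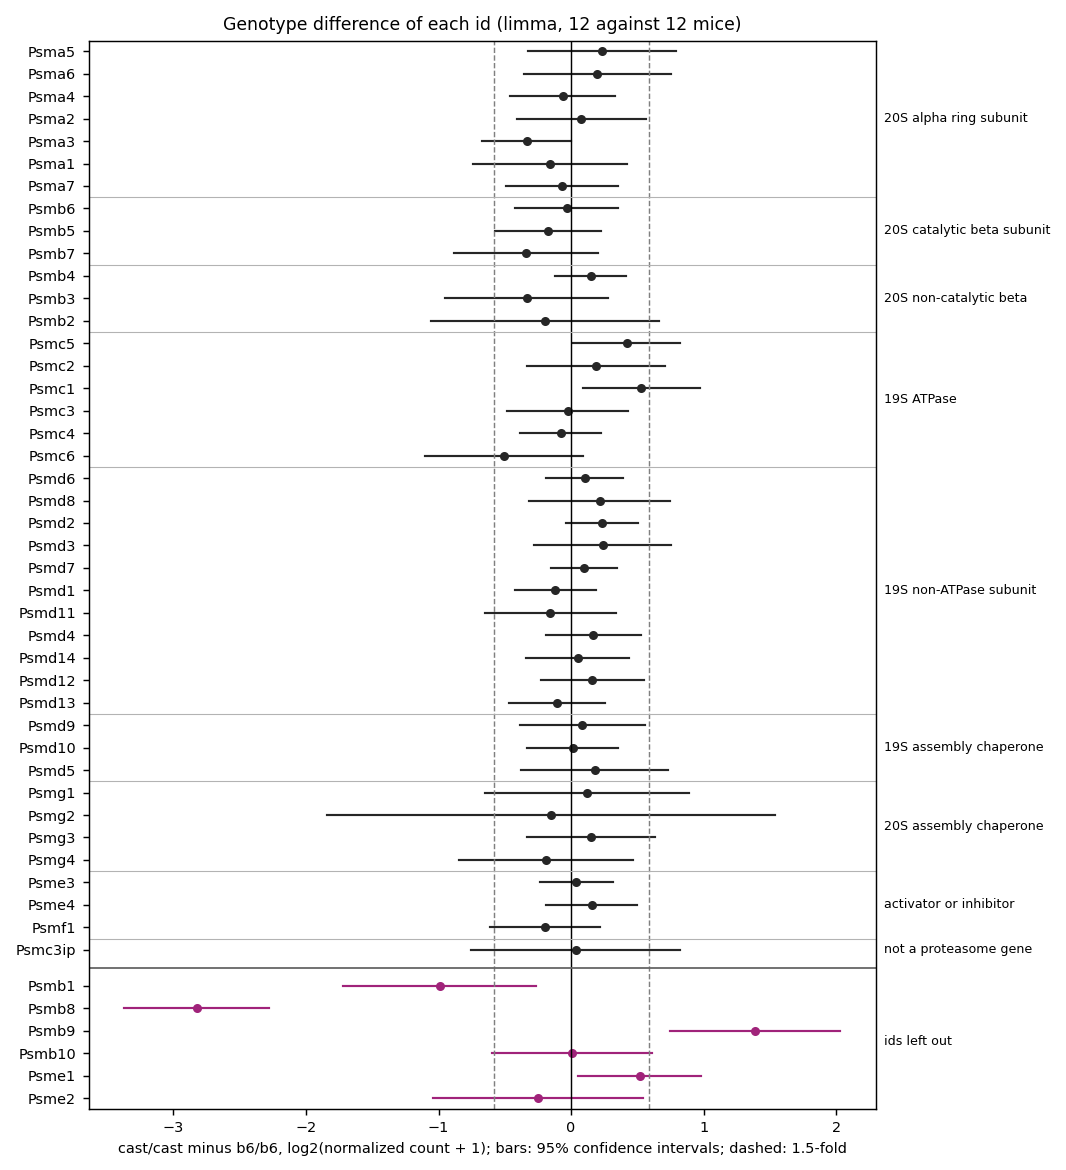
Difference of each gene between the genotypes, cast/cast minus b6/b6, on the log2(normalized count + 1) scale with 95% confidence intervals from limma, and dashed lines at a 1.5-fold change. The intervals of 39 of the 41 genes include 0, while those of the left-out Psmb1, Psmb8, Psmb9 and Psme1 do not.

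A P above the threshold does not show equal levels, so the intervals matter. For 38 of the 41 genes the 95% confidence interval lay within a 2-fold change in either direction, as it did for 11129 of all 13998 genes. For 20 of the 41 it lay within a 1.5-fold change, a bound for which all genes were not counted. Psmg2 had the widest interval. Among the catalytic genes, the difference was -0.03 for Psmb6, -0.17 for Psmb5 (interval -0.58 to 0.23) and -0.34 for Psmb7 (interval -0.89 to 0.20). The narrowest interval of the 41 was that of the lid gene Psmd7, from -0.15 to 0.34 around a difference of 0.10. No gene of the 41 had groups that did not overlap, compared with 0.336% of all genes.

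The 6 genes left out by the rule behaved unevenly. Psmb8, an inducible catalytic subunit encoded on Chr 17, ranged from 37.1 through 58.1 to 114 in b6/b6 mice and from 2.83 through 9.42 to 15.1 in cast/cast mice, with no overlap, and fell by 2.83 on the log2 scale (adjusted P = 1.61e-08). Psmb9, its neighbour on Chr 17, was higher in cast/cast mice by 1.39 (adjusted P = 0.0268), with 28.5 and 11.3 as the group medians. The adjusted P of Psmb9 was 0.0773 in edgeR, 0.0101 in DESeq2 and 0.0778 with libraries scaled to equal totals, and 9 of 24 single-mouse omissions took it above 0.05. Psmb1, the remaining subunit of the 20S core, also lies on Chr 17. It ranged from 1796 through 3046 to 7270 in b6/b6 and from 445 through 2601 to 3614 in cast/cast mice, a difference of -0.99 ± 0.35 (adjusted P = 0.482, P = 0.00943), which was -0.34 without the 6 mice on the first component. These 3 genes lie in the segment whose alleles differ between the genotypes, and an effect of sequence differences on tag alignment was not tested. Psme1 on Chr 14 differed by 0.52 (adjusted P = 0.587), Psme2 by -0.25 and Psmb10 by 0.01.

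Of 30 measured genes that work with the proteasome, none passed the adjusted threshold between genotypes. At an unadjusted P of at most 0.05 there were 3 of the 30, all higher in cast/cast mice. Of all genes 8.13% had such a P in either direction, and 526 of 13998 were higher with it. They included Sqstm1, which encodes an adaptor that binds ubiquitin (0.35 ± 0.14, adjusted P = 0.548), and Pomp, which encodes a factor that matures the 20S core (0.30 ± 0.14, adjusted P = 0.608). The 5 genes of ubiquitin activation and ligation were all lower in cast/cast mice, as were 7378 of the 13998 genes. Their median was -0.28, and none of them had an unadjusted P at or below 0.05. One of the 5, Stub1, is on Chr 17 and differed by -0.10, and an effect of sequence differences on its tag was not tested.

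Levels also varied among mice of the same genotype. After subtraction of the genotype means, the SD across mice ran from 0.26 for Psmd7 and 0.29 for Psmb4 to 1.11 for Psmb2 and 2.22 for Psmg2 on the log2 scale. The median of the 41 genes was 0.55, near the 0.57 of all genes. Among genes with a mean of at least 500 normalized counts, it was 0.504 for 24 of the 41 and 0.472 for all such genes. Psmb2 reached 377 normalized counts in cast/cast replicate 1 and was at 16.6, 27.9 and 44.6 in cast/cast replicates 6, 4 and 5. Psmd11, a subunit of the 19S lid, stood at 1882 in b6/b6 replicate 4 and at 274 to 721 in the other b6/b6 mice.

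**Figure D3:**
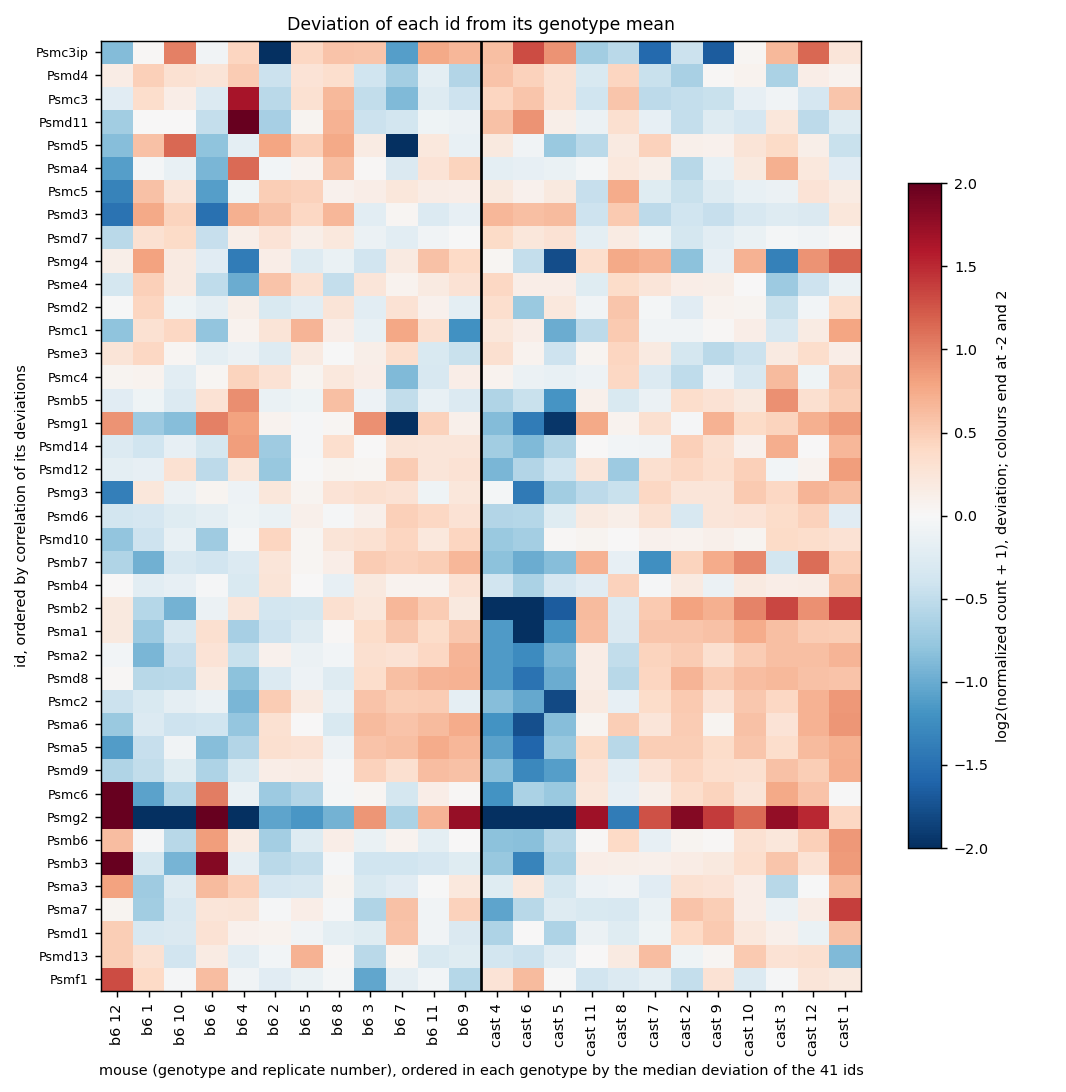
Deviation of each gene from its genotype mean on the log2(normalized count + 1) scale, with genes ordered by correlation and mice ordered within genotype by their median over the 41 genes. The 3 cast/cast mice at the left of their block, replicates 4, 6 and 5, have median deviations of -0.59, -0.57 and -0.56, and cast/cast replicate 1 at the right has one of 0.54.

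Many of the 41 genes deviated together, but not as a single block. The median correlation over their 820 pairs was 0.14 (quartiles -0.18 and 0.44), beside 0.00 (quartiles -0.28 and 0.28) over pairs of all genes. A correlation above 0.5 was found in 21.7% of the pairs and in 10.9% of all gene pairs. Without the 6 mice on the first component these shares were 12.6% and 10.6%, in b6/b6 mice alone 16.3% and 16%, and in cast/cast mice alone 34.3% and 16.5%. These values describe 24 libraries that share depth and tissue composition, and the median was 0.24 in cast/cast mice, 0.03 in b6/b6 mice and 0.10 without the 6 mice on the first component.

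The closest pair was Psma2 and Psmd8 at 0.96, an alpha ring gene and a lid gene, followed by Psma1 and Psmd8 at 0.95 and Psma5 and Psmd9 at 0.95. These genes also followed the first principal component of other genes. Their correlations with it were -0.90 for Psma2, -0.90 for Psmd8, -0.91 for Psma1, -0.585 for Psma5 and -0.66 for Psmd9. In 16 of the 41 genes, or 39.0%, the 3 lowest cast/cast values were those of replicates 4, 5 and 6, and this held for 10.7% of all genes. All 3 non-catalytic beta genes and the catalytic genes Psmb5 and Psmb6 were among them. Replicates 4, 5 and 6 also had the lowest median deviations of the 41 genes among cast/cast mice. The excess over all genes is therefore not independent of which mice were taken. Replicate 8, at the same end of the first component, had a median deviation of 0.07 and was not counted. The opposite order, with these 3 mice highest, was found in Psmd3 and Psmd7, or 4.88%, beside 10.4% of all genes. Psmd3 stood at 2606, 2649 and 2724 there and between 1193 and 2469 in the other cast/cast mice.

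Psmd3 and Psmd7 encode subunits of the 19S lid and followed each other at 0.92. They ran against Psmg2, a 20S chaperone, at -0.92 and -0.89, and against the ATPase gene Psmc6 at -0.88 and -0.86. With the first component of other genes, Psmd3 and Psmd7 correlated at 0.87 and 0.88, and Psmg2 and Psmc6 at -0.95 and -0.795. Whether such pairs go together apart from that component was not tested. In b6/b6 replicates 6 and 12, Psmg2 was at 299 and 371, against 2.87 to 74.3 in the 10 other b6/b6 mice, and Psmb3 was at 3095 and 3597, against 455 to 846. Psmd3 was at 517 and 518 in the same mice, below the 1198 to 2448 of the others. These mice were the highest of the b6/b6 group for 6 of the 41 genes, or 14.6%, and the lowest for 7, or 17.1%, near the 22.4% and 17.6% of all genes.

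The labels give the intake of each mouse, and slopes on intake were fitted within genotype. Total intake ranged from 94.8 to 120.2 kcal over 10 d in b6/b6 mice and from 104 to 133.1 kcal in cast/cast mice. Most proteasome genes had a positive slope on total intake. No gene of the table, of the 41 or otherwise, passed the adjusted threshold in limma. The slope was positive for 34 of the 41 genes, with a median of 0.17 on the log2 scale per 10 kcal, whereas 47.8% of all genes had a positive slope and their median was -0.01. At an unadjusted P of at most 0.05 there were 10, or 24.4%, all positive, compared with 9.96% of all genes in either direction and 5% in the positive direction. None of the 41 reached an adjusted P of 0.05 in edgeR or DESeq2 either, and their lowest adjusted P in limma was 0.485. At the unadjusted threshold edgeR gave 4, beside 8.44% of all genes, and DESeq2 gave 5, beside 11.1%, so that with these tools the members' share was near that of all genes.

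The 10 genes encode alpha and beta ring subunits, ATPases and assembly chaperones, and none is a non-ATPase subunit or a regulator. This division follows the threshold. Next by P came the non-ATPase genes Psmd12, Psmd8 and Psmd14, with slopes of 0.22, 0.29 and 0.21 (limma, unadjusted P = 0.0617, 0.0667 and 0.0746). Psmc2, an ATPase of the 19S ring, ranged from 2585 through 4432 to 7196 normalized counts in b6/b6 and from 1577 through 6930 to 10070 in cast/cast mice. Its slope was the steepest in relation to its error, 0.45 ± 0.13 per 10 kcal (unadjusted P = 0.00248). Within b6/b6 mice the slope was 0.14 ± 0.18 and within cast/cast mice 0.72 ± 0.17. The highest Psmc2 level belonged to cast/cast replicate 1, the mouse with the highest total intake, and the lowest to cast/cast replicate 5, which had eaten 107.2 kcal.

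Psmd9, a chaperone of the 19S base, had a slope of 0.34 ± 0.13, and Psmg1, a chaperone of the 20S core, one of 0.54 ± 0.21. The catalytic genes Psmb5 and Psmb7 had slopes of 0.28 ± 0.11 and 0.35 ± 0.15. The remaining 5 were the alpha ring genes Psma5 and Psma6, the ATPase gene Psmc1, the 19S chaperone gene Psmd5 and the beta ring gene Psmb2. All 7 alpha ring genes, all 6 beta ring genes and all 6 ATPase genes had a positive slope. The 11 non-ATPase genes did not share this direction, with 6 positive and 5 negative slopes and a median of 0.01, and the 3 regulators had a median of -0.01. Whether slopes differed between the roles was not tested.

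**Figure D4:**
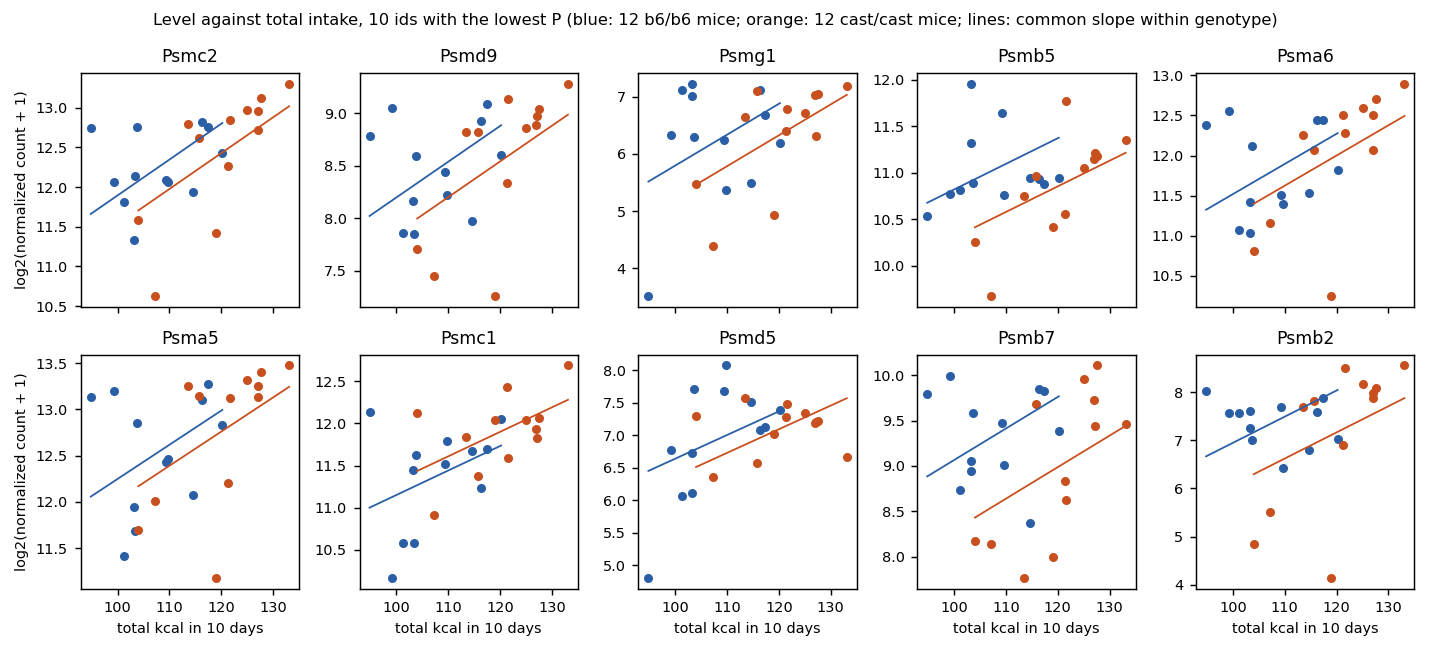
Level of the 10 genes with the lowest P on the log2(normalized count + 1) scale against total intake in kcal over 10 d, with b6/b6 mice in blue, cast/cast mice in orange and lines for the common slope within genotype. The cast/cast mice at the left of each panel, between 104 and 119 kcal, include replicates 4, 5 and 6, which are low for most of the genes shown.

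These counts rested on few mice. Replicates 4, 5 and 6, the cast/cast mice with low hypothalamic marker sums, had eaten 104, 107.2 and 119 kcal in all. Without replicate 5 the count was 1, without replicate 4 it was 5 and without replicate 1 it was 6, while the share of all genes was 5.8%, 5.62% and 4.81%. With all 6 mice on the first component left out, 4 genes had an unadjusted P at or below 0.05 (Psmc1, Psmc3, Psmc3ip and Psmd5), beside 5.88% of all genes, and of these Psmc3 and Psmc3ip were not among the 10. Then 27 slopes were positive, with a median of 0.07. The slope of Psmc2 was then 0.17. In cast/cast mice alone 29 of the 41 slopes were positive, with a median of 0.35, and in b6/b6 mice 22, with a median of 0.02. Whether these slopes differed between genotypes was not tested.

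Intake of the C/P diet gave less. Its range was 27.4 to 41 kcal in b6/b6 and 77.8 to 106.6 kcal in cast/cast mice. The common slope was negative for 32 of the 41 genes, with a median of -0.13 per 10 kcal beside 0.00 over all genes. Only Psmb6 had an unadjusted P at or below 0.05 in limma, or 2.44% beside 3.72% of all genes, with a slope of -0.29 ± 0.13 (P = 0.0416, adjusted P = 0.960). Psmb5 followed at -0.28 ± 0.14 and Psme3 at -0.19 ± 0.10. No gene of the table, of the 41 or otherwise, had an adjusted P at or below 0.05 in limma, and none of the 41 had one in edgeR or DESeq2. Without cast/cast replicate 5, which had the highest C/P intake, 19 slopes were positive, the median was -0.02 and Psmb5 had a slope of -0.06.

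The C/P slopes were also compared between the genotypes. Psmf1, the inhibitor gene, was the only one of the 41 with an adjusted P at or below 0.05, or 2.44% beside 3.39% of all genes. Psmf1 ranged from 23.97 through 48.3 to 126 normalized counts in b6/b6 and from 31.2 through 43.4 to 68.8 in cast/cast mice. Its slope was -1.22 ± 0.31 per 10 kcal in b6/b6 mice and 0.01 ± 0.13 in cast/cast mice, a difference of 1.22 ± 0.33 (adjusted P = 0.0444). The value of 126 belonged to b6/b6 replicate 12, the mouse with the lowest C/P intake, and without that mouse the difference was 0.97 (adjusted P = 0.709) and none of the 13998 genes passed the adjusted threshold. The call was lost in 14 of the 24 omissions of a single mouse. At an unadjusted P of at most 0.05 there were 12 of the 41 genes, or 29.3%, beside 22.1% of all genes, and 4 of the 41 without that mouse, beside 6.99%. Psmc5 at -1.11 ± 0.35 and Psmd5 at -1.42 ± 0.50 came next, both with the opposite sign of Psmf1. The lowest Psmc5 level, 4204, was also that of b6/b6 replicate 12. Without that mouse Psmd5 stayed at or below the unadjusted threshold and Psmc5 did not.

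The labels number the mice in the study, from 15 to 270 in cast/cast mice and from 27 to 364 in b6/b6 mice, and the medians of 120.5 and 269.5 differ. What the number records beyond an order is not given in the sources used here. Of the 41 genes, 9 followed it at an unadjusted P of at most 0.05, or 22%, near the 21.2% of all genes. There were 5 positive and 4 negative slopes, beside 10.3% and 10.9% of all genes. In limma no gene of the table, of the 41 or otherwise, had an adjusted P at or below 0.05. Among the 41, edgeR gave 1, beside 2.75% of all genes, and DESeq2 gave 4, beside 6.85%. Psmd3 had a slope of 0.31 ± 0.10 per 100 study numbers (adjusted P = 0.152), Psmd5 one of 0.33 ± 0.11 and Psmc5 one of 0.23 ± 0.08. Without b6/b6 replicates 6 and 12, which have the numbers 42 and 27, the slope of Psmd3 was 0.14 and 1 gene of the 41, Psmd5, stayed at or below the unadjusted threshold, beside 3.86% of all genes. With cast/cast replicate 4 left out, 6 of the 41 genes and 8.39% of all genes had an adjusted P at or below 0.05.

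Transcription of many proteasome genes is known to be raised by factors that bind antioxidant response elements. The core of that element, TGACNNNGC on either strand, was looked for in the 250 bases before the RefSeq transcription start on GRCm38.p6, where 35 of the 41 genes had an entry. It was found in 5 of the 35, or 14.3%, and in 12.1% of 9960 measured genes with an entry. The 5 were Psmb5, Psmb6, Psmc6, Psmd9 and Psmd12. CCAAT was found in 37.1% and 36.2%, again close to each other. The stretches of the 2 catalytic genes are shown in gene orientation with the element in capitals, that of Psmb5 from chr14:54618024-54618052 on the minus strand and that of Psmb6 from chr11:70525338-70525356 on the plus strand.
Psmb5: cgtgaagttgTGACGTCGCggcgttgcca
Psmb6: ctaaagagagTGACGGAGC

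Slopes of the pathway genes on total intake went in both directions. Of the 30 measured, 13 had a positive slope on total intake, with a median of -0.01. An unadjusted P at or below 0.05 was found for 3, all positive, beside 9.96% of all genes in either direction and 5% in the positive direction. These included Akirin2, which encodes a factor for nuclear import of proteasomes (0.23 ± 0.09 per 10 kcal, adjusted P = 0.485), and Ufd1l, which encodes a partner of the segregase that extracts ubiquitylated proteins (0.18 ± 0.08, adjusted P = 0.492). On study number 5 of the 30 had a positive and 2 a negative slope at an unadjusted P of at most 0.05, beside 10.3% and 10.9% of all genes. Nfe2l1, which encodes the factor that raises proteasome genes when the proteasome is inhibited, had a slope on study number of 0.22 ± 0.08 (adjusted P = 0.157), and Nfe2l2, the related oxidative stress factor, one of -0.58 ± 0.18 (adjusted P = 0.152). With C/P intake Uchl1 and Uchl5, which encode deubiquitinases, had slopes of -0.46 ± 0.18 and -0.17 ± 0.07 (unadjusted P = 0.0177 and 0.0281, adjusted P = 0.960 for both). The other 28 pathway genes had an unadjusted P above 0.05, and 3.72% of all genes had one at or below it. Akirin2 was the only pathway gene with an adjusted P at or below 0.05 in any comparison, with C/P slopes that differed between the genotypes by -1.05 ± 0.26 per 10 kcal (adjusted P = 0.0349), a threshold that 3.39% of all genes passed. No gene of the table passed it without b6/b6 replicate 12, without both mice on the second component or with the components as covariates.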

How the data were processed

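Total RNA of each hypothalamus was made into a SOLiD SAGE library, 1 per mouse. The signal values deposited by the authors are tag hits per gene on GRCm38, scaled between libraries by size factors from DESeq. The deposited columns of the authors' own comparison (group means, fold change, P and adjusted P from DESeq) were not used. Dividing by the step between low values gave back whole tag hits for 100% of entries (tolerance 0.01). The lowest mean of any gene was 6.03, so a minimum mean of 5 removed none.

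The test for every gene was limma 3.58.1 with a mean-dependent prior variance, applied to log2(normalized count + 1). Fold changes on this scale understate the change of low genes. Slopes on C/P kcal, total kcal and study number had genotype as a covariate, and P was adjusted over the 13998 genes by Benjamini-Hochberg. The recovered tag hits were also tested with edgeR 4.0.16 (quasi-likelihood test) and DESeq2 1.42.0, except for the difference of C/P slopes. All 3 tools were run on simulated counts for the genotype difference and the total intake slope, and limma alone for the difference of C/P slopes. The simulation drew each gene independently, so it does not bear on variation that genes share. Other alternatives were a minimum mean of 20, pseudocounts 0.5 and 5, equal totals, study number as a covariate, the fold change from the log2 scale and leaving out each mouse. Further ones (without the 6 mice over 0.2 on the first principal component of other genes, without the 2 over 0.4 on the second, and both components as covariates) were added after the data were seen. The 6 were cast/cast replicates 4, 5, 6 and 8 and b6/b6 replicates 1 and 4. Replicates are separate mice, numbered here in accession order.

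Genes named were the 3 catalytic ones, the highest and lowest of each role, those called or otherwise the 3 with the lowest P in each comparison, the genes left out, and the 3 pathway genes with the lowest P. Others were named after their values were seen. Some items that this rule takes in are not reported here. The members and lists were chosen with earlier results of these data known. Intervals and the floor of 3 tag hits cover counting or sampling error only. Computation used R 4.3.3 and Python 3.11.15.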

Additional observations from a re-analysis of the deposited data

Results flagged for a closer look

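Psmf1 was singled out because its slope on C/P intake differed between the genotypes in a test of the difference itself. The slope in cast/cast mice exceeded that in b6/b6 mice by 1.22 on the log2 scale per 10 kcal (limma, adjusted P = 0.0444). The adjusted P ranged from 0.0314 to 0.776 over the alternatives that kept all mice or left out a group of mice, and leaving out single mice gave differences from 0.97 to 1.37. The call was lost without any of cast/cast replicates 2, 3, 5, 7, 8, 9, 10 and 12 or b6/b6 replicates 2, 3, 9, 10, 11 and 12, 14 mice in all. The b6/b6 mouse with the lowest C/P intake, replicate 12, had both the highest Psmf1 level and high endothelial and blood marker sums, and the part of these in the difference was not tested.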

How the results depend on the processing

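None of the 41 genes met the study's rule or an adjusted P of 0.05 between genotypes in any single-mouse omission, under other pseudocounts or scaling, or in edgeR and DESeq2. The count under the study's rule was 1 without the 6 mice on the first component (Psmb2) and 1 with both components as covariates (Psmc6), where 5 genes passed the adjusted threshold, beside 9.83% of all genes. Those covariates left the genotype differences themselves unchanged and altered only their errors. The count at an unadjusted P of 0.05, 2 as reported, was 4 with study number as a covariate, 11 without the 6 mice, 0 without the 2 mice on the second component and 8 with both components, beside 14.8%, 16.8%, 4.88% and 25.8% of all genes, and from 1 to 4 without single mice. Leaving out b6/b6 replicate 1 gave the 4, beside 10.5% of all genes. Leaving out any of cast/cast replicates 4, 5, 8 and 12 or b6/b6 replicates 4, 6 and 12 gave 1, beside 5.56% to 7.92%.

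For C/P intake the count at the unadjusted threshold was 3 in edgeR, 4 in DESeq2, 2 with study number, 0 without the 6 mice, 3 without the 2 mice and 3 with both components, beside 4.15%, 4.79%, 2.89%, 5.2%, 2.86% and 6.98% of all genes. Without single mice it was from 0 to 6, the 6 being without cast/cast replicate 11, beside 6.6% of all genes. It was 0 without cast/cast replicates 5 or 12 or b6/b6 replicate 2, beside 3.21%, 2.8% and 3.03%. For total intake the unadjusted count was 4 in edgeR, 5 in DESeq2, 4 without the 6 mice and 5 with both components, beside 8.44%, 11.1%, 5.88% and 6.29% of all genes. Without single mice it was from 1 to 13, with 5.8% of all genes where it was 1, without cast/cast replicate 5. For study number the adjusted count was 1 in edgeR, 4 in DESeq2 and 10 without the 6 mice, beside 2.75%, 6.85% and 9.93% of all genes, and from 0 to 6 without single mice (8.39% of all genes where it was 6). Its unadjusted count was 16 without the 6 mice, 1 without the 2 mice and 2 with both components, beside 30.1%, 3.86% and 4.14% of all genes, and from 3 to 12 without single mice. The lowest were 3 without b6/b6 replicate 12 and 4 without b6/b6 replicate 6, beside 9.27% and 11% of all genes. For the difference of C/P slopes the adjusted count was 7 without the 6 mice (13.4% of all genes), 0 without the 2 mice and 0 with both components (no gene of the table in either). Without single mice it was from 0 to 3, beside 5% of all genes where it was 3 and 0% to 2.67% where it was 0. The unadjusted count was 19, 3 and 5 under the same settings, beside 32.2%, 7.19% and 6.85% of all genes. Without single mice it was from 4 to 14, beside 6.99% of all genes where it was 4. The cause of these changes was not tested.

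Of the left-out genes, Psmb10 changed sign with equal totals (-0.08), without the 6 mice (-0.19), without the 2 mice (-0.21) and without single mice (from -0.10 to 0.16), and Psme2 without the 6 mice (0.08) and without the 2 mice (0.15). The median correlation of member pairs was 0.14 with all mice, 0.10 without the 6 mice and 0.13 without the 2 mice. No paired analysis was possible because the labels give no replicate numbers shared between the genotypes. Psmg4, Psmg2 and Psmc3ip had values near the floor of 3 tag hits in some mice, which limits what can be seen of them. The same limit holds for 2 left-out genes, Psmb8 with 3 to 15 tag hits in cast/cast mice and Psmb9 with 4 to 39 in b6/b6 mice.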
